A study of Mus musculus with 4 samples.

Results

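The SOX factors are transcription factors that bind DNA through a high-mobility-group domain, the HMG box. Here 10 of their genes, Sox2, Sox4, Sox5, Sox7, Sox9, Sox10, Sox11, Sox12, Sox13 and Sox15, were followed in mouse breast cancer cells labelled as wild type or deficient for Pak1, a p21-activated kinase. The members were chosen by name: every non-control probe on the array whose gene name is 1 of the 10 was taken, which gave 13 probes for 10 of the 31829 gene names on the array. For genes with more than 1 probe, the brightest stood for it and the others are reported beside it.

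The cells were derived from mammary tumours of MMTV-Neu mice. Their transgene places Neu, the rat form of Her2 (mouse gene Erbb2), under the promoter of the mouse mammary tumour virus, which is active in mammary epithelium. Of the 4 samples, 2 carried the label Pak1-/- and 2 the label Pak1+/+, and all 4 carried the Neu transgene, came from medium with low calcium and horse serum, went 3 h without serum and then received epidermal growth factor (EGF) for 15 min. Total RNA was amplified and labelled with a single dye (Cy3). The labelled cRNA was hybridised to a mouse whole genome array with probes of 60 bases. The design names separate tumours within each group, the methods speak of tumour-derived cell lines, and the age of the mice is not given in the sources used here, so p-values measure the spread between 2 such samples per group.

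SOX proteins bend the minor groove of DNA at short AT-rich sites and usually act with a partner factor, and they are grouped by the similarity of their HMG boxes. Sox2 belongs to group B1, Sox4, Sox11 and Sox12 to group C, Sox5 and Sox13 to group D, Sox9 and Sox10 to group E, Sox7 to group F and Sox15 to group G. In the mammary gland Sox9 and Sox10 are known as factors of stem and progenitor cells, Sox4 is known for its part in the epithelial-mesenchymal transition, and several SOX proteins are known to bind beta-catenin and to alter Wnt signalling.

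Some probes of the family share letters. Among the 13 probes, 1 for Sox4 (mm9, chr13:29044482-29044541, minus strand) and the probe for Sox15 (mm9, chr11:69469212-69469271, plus strand) held the longest run of letters shared by probes of different SOX genes, 13 bases, and are shown for that. Laid over each other, the probes share 36 positions, of which 22 (61.1%) are identical, and the capitals mark those.
Sox4: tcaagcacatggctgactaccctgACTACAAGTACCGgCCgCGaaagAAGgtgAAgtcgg
Sox15: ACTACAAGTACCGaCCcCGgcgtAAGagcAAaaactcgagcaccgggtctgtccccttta
Cross-hybridisation between them was not tested. The probe for Sox4 was higher in the arrays labelled Pak1-/- and the probe for Sox15 was lower there, as given below. The next longest run shared by probes of different SOX genes was 9 bases, between Sox5 and Sox15.

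The median spot intensity was 322 to 331 on the 4 arrays over a median local background of 39.0 to 42.0, and 62.2% to 70.4% of the 39429 probes were well above background. The Pak1 probe checked the labels. Its normalized log2 intensity was 12.21 and 12.25 in the arrays labelled Pak1-/- and 12.04 and 12.04 in those labelled Pak1+/+, a difference of 0.19 (SE 0.07) that missed the threshold (limma, adjusted p = 0.070, with 0.027 to 0.24 over the alternatives and past the threshold only with cyclic loess). The Pak1-/- label was thus not borne out by a lower Pak1 signal, and every direction here goes by the labels. Values of a group are listed in the order of its replicate numbers. The 2 arrays labelled Pak1-/- lay at neighbouring positions of the slide and the other two beside them, so that genotype cannot be told apart from slide position.

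Of the 10 SOX genes, 8 were bright enough to be tested. Sox4, Sox7 and Sox9 were higher in the arrays labelled Pak1-/-, Sox13 and Sox15 were lower, and Sox10, Sox11 and Sox12 did not pass the threshold (limma, adjusted p under 0.05 over all 27215 probes tested). Sox2 and Sox5 were not tested, since they were well above background on 0 and 1 of the 4 arrays. These counts stand against a broad difference between the groups. Past that threshold were 52.0% of all probes tested, and of the 21945 genes tested, 22.8% were higher and 28.3% lower. No overlap between the groups was seen for 6 of the 8 SOX genes, and for 77.6% of all genes tested. A call together with a change of at least 2-fold was found for 1 SOX gene, Sox4, and for 12.6% of all genes tested. The median absolute log2 difference was 0.47 over the 8 tested SOX genes and 0.32 over all genes tested, and the signed medians were 0.23 and -0.055. The sign over the SOX genes rests on the probe taken for Sox11, since the median was -0.19 with its other probe and -0.14 with the mean of both. These counts and medians leave out Sox2 and Sox5 and include Sox7, which passed the filter only through the arrays labelled Pak1-/-, and they are a description.

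**Figure D1:**
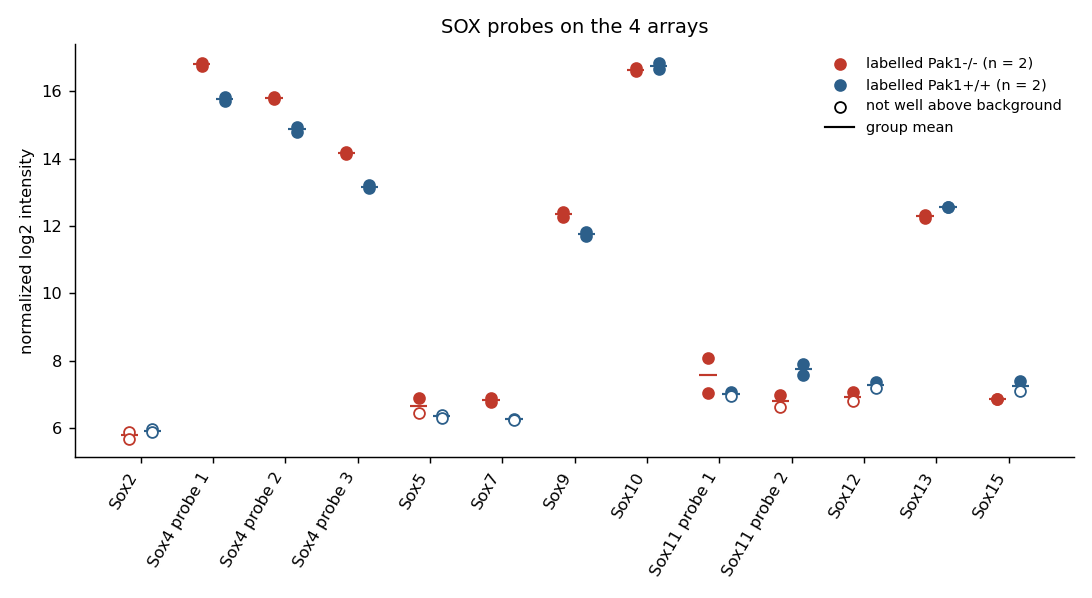
Normalized log2 intensity (y axis) of each of the 13 SOX probes (x axis) on the 2 arrays labelled Pak1-/- and the 2 labelled Pak1+/+, where short lines are group means and open points were not well above background. The 3 probes of Sox4 and the probe of Sox9 sit higher in both Pak1-/- arrays, the points of Sox10 overlap, and the dim probes of Sox2, Sox5, Sox7, Sox11, Sox12 and Sox15 lie near the lower end of the scale. Intensities of different probes are not comparable as transcript levels.

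**Figure D2:**
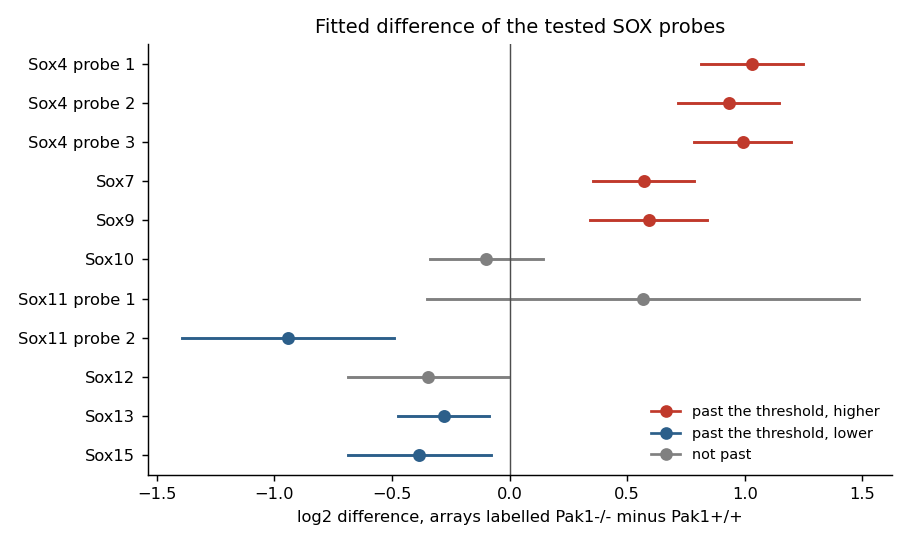
Fitted log2 difference (x axis), arrays labelled Pak1-/- minus Pak1+/+, for the 11 SOX probes tested, with its 95% confidence interval from limma (2 arrays per group). Colours give the call at an adjusted p under 0.05 over all probes, so that Sox12, whose interval ends at -0.007, was not past it. The 3 Sox4 probes lie between 0.93 and 1.03, and the 2 Sox11 probes lie on opposite sides of 0.

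Among the 10 genes and in the reported setting, the largest fitted difference was that of Sox4, in group C. Sox4, a factor of progenitor cells in many tissues, was measured by 3 probes within 3716 bases of mm9 chromosome 13 (minus strand), and each was well above background on all 4 arrays. The brightest of them (chr13:29040826-29040885) read 16.84 and 16.74 in the arrays labelled Pak1-/- and 15.81 and 15.70 in those labelled Pak1+/+ (normalized log2 intensity). Both Pak1-/- arrays lay above both Pak1+/+ arrays, by far more than the replicates differed from each other. The means were 16.79 ± 0.07 and 15.76 ± 0.08 (SD, n = 2 each), and the difference of 1.03 on the log2 scale (SE 0.08), or 2.05-fold, passed the threshold (limma, adjusted p = 0.0010). Before normalization its spots read 100820 and 107702 against 61843 and 54043 intensity units, and no spot of any SOX probe was saturated.

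The other Sox4 probes gave similar differences. The probe at chr13:29042856-29042915 read 15.83 and 15.77 against 14.93 and 14.80, a difference of 0.93 (SE 0.08, limma adjusted p = 0.0013). The third probe, shown above, read 14.13 and 14.19 against 13.11 and 13.22, a difference of 0.99 (SE 0.08, limma adjusted p = 0.0010). The 3 probes measure the same transcripts in the same RNA and are not independent replicates. In the log2 values deposited by the authors the brightest probe had no value, so the probe at chr13:29042856-29042915 stood for Sox4 there (0.96). The alternative that took the mean over the 3 probes gave 0.98. Over 14 processing alternatives the Sox4 difference ranged from 0.86 to 1.09 and passed the threshold in each (adjusted p = 0.00053 to 0.011).

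Sox11, the closest relative of Sox4 and best known from developing neurons, had 2 probes whose starts lie 546 bases apart on the minus strand of mm9 chromosome 12, and they disagreed. The brighter by a small margin (chr12:28019541-28019600) read 8.09 and 7.05 in the arrays labelled Pak1-/- and 7.06 and 6.95 in those labelled Pak1+/+. Only Pak1-/- replicate 1 stood high and the groups overlapped, so that the difference of 0.57 (SE 0.35) was not past the threshold (limma, adjusted p = 0.24). The other probe (chr12:28020087-28020146) read 6.99 and 6.63 against 7.59 and 7.92. Here the groups did not overlap and the difference of -0.94 (SE 0.17) passed the threshold in the opposite direction (limma, adjusted p = 0.010). All values of both probes were dim, 88.3 to 260.7 intensity units over local backgrounds of 34.0 to 46.0. Leaving out Pak1-/- replicate 2 made the first probe a call of 1.08 (adjusted p = 0.0091), leaving out Pak1-/- replicate 1 brought it to 0.05 (adjusted p = 0.70), and the mean over both probes was -0.19 (adjusted p = 0.55). No direction is given for Sox11.

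Sox12, the third gene of the group, read 7.09 and 6.80 in the arrays labelled Pak1-/- and 7.38 and 7.20 in those labelled Pak1+/+ (chr2:152220036-152220095, minus strand). The groups did not overlap, but the probe was well above background on only 1 array of each group, and the difference of -0.35 (SE 0.13) was not past the threshold (limma, adjusted p = 0.081). With the replicate number as a block the adjusted p was 0.035. The difference was -0.20 without Pak1-/- replicate 2 (adjusted p = 0.24) and -0.77 with the processed signal (adjusted p = 0.14).

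Group E holds Sox9 and Sox10, which gave different results. Sox9, the regulator of cartilage formation that also marks mammary progenitors, is a gene that the array measured with 10 identical spots spread over its surface (mm9, chr11:112648809-112648868, plus strand). The mean over the spots was 12.43 and 12.28 in the arrays labelled Pak1-/- and 11.69 and 11.83 in those labelled Pak1+/+. The groups did not overlap, and the means of 12.35 ± 0.10 and 11.76 ± 0.10 (SD, n = 2 each) differed by 0.59 (SE 0.09), or 1.51-fold (limma, adjusted p = 0.0070). The SD between the 10 spots of an array was 0.14 to 0.18, a technical spread that is not counted as replication. The spots ranged from 12.20 to 12.60 and from 11.998 to 12.47 on the arrays labelled Pak1-/-, and from 11.44 to 11.84 and from 11.55 to 11.988 on those labelled Pak1+/+, so that every Pak1-/- spot lay above every Pak1+/+ spot. Over 14 alternatives the difference ranged from 0.52 to 0.67 and passed the threshold in each (adjusted p = 0.0044 to 0.037).

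**Figure D3:**
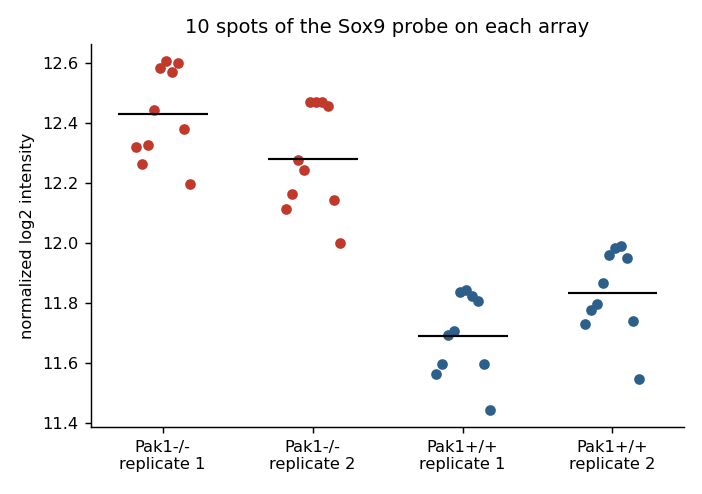
Normalized log2 intensity (y axis) of the 10 spots of the Sox9 probe on each of the 4 arrays (x axis), with the array's mean as a line. The lowest Pak1-/- spot (11.998) lies just above the highest Pak1+/+ spot (11.988), and the array means lie at 12.28 and 12.43 against 11.69 and 11.83.

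Sox10, which specifies glia and melanocytes and is also expressed in mammary progenitors, was a bright probe that did not separate the groups (mm9, chr15:78985518-78985577, minus strand). It read 16.59 and 16.68 in the arrays labelled Pak1-/- and 16.82 and 16.65 in those labelled Pak1+/+. The groups overlapped, and the difference of -0.098 (SE 0.09) had a 95% interval of -0.34 to 0.14 (limma, adjusted p = 0.42). A fall past 0.34 or a rise past 0.14 on the log2 scale thus lies outside the interval. The call changed with the processed signal scaled to each array's 75th percentile, where the difference was -0.36 (adjusted p = 0.048). The difference between the effects on Sox9 and Sox10 was not tested.

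Of the group D genes followed, Sox13 was tested and Sox5 was not. Sox13, known from lymphocytes and as a partner of the TCF factors, read 12.24 and 12.34 in the arrays labelled Pak1-/- and 12.57 and 12.57 in those labelled Pak1+/+ (mm9, chr1:135279099-135279158, minus strand). Both Pak1-/- arrays lay below both Pak1+/+ arrays, and the difference of -0.28 (SE 0.07), 1.21-fold, passed the threshold (limma, adjusted p = 0.031). The call held in 6 of 14 alternatives, and it was lost without Pak1-/- replicate 1 (adjusted p = 0.090), Pak1+/+ replicate 1 (0.13) or Pak1+/+ replicate 2 (0.12), with the replicate number as a block (0.059) and with cyclic loess (0.081). Sox5, a coactivator in cartilage that lacks a transactivation domain, read 6.45 and 6.90 in the arrays labelled Pak1-/- and 6.41 and 6.31 in those labelled Pak1+/+ (chr6:143781520-143781579, minus strand). It was well above background on Pak1-/- replicate 2 only and was not tested. A further probe described on the array as SOX-5 but listed under another gene name lay outside the rule, and read 7.19 and 6.95 against 6.94 and 7.10, a difference of 0.06 (SE 0.12, limma adjusted p = 0.71).

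Of the genes followed in groups B1, F and G, Sox2, Sox7 and Sox15 were dim. Sox2, a core pluripotency factor, read 5.90 and 5.70 in the arrays labelled Pak1-/- and 5.97 and 5.88 in those labelled Pak1+/+ (chr3:34550773-34550832, plus strand). On no array was the probe well above background, with 40.2 to 46.8 intensity units over a local background of 37.0 to 44.0, so no signal was detectable and no fold is given. The noncoding transcript that spans Sox2, Sox2ot, was also not well above background on any array.

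Sox7, an endothelial factor, read 6.77 and 6.91 in the arrays labelled Pak1-/- and 6.28 and 6.25 in those labelled Pak1+/+ (chr14:64569419-64569478, plus strand). It was well above background on both Pak1-/- arrays and on neither Pak1+/+ array, and its own values in the latter lay under the lowest value measurable there. The measured difference of 0.57 (SE 0.08) passed the threshold (limma, adjusted p = 0.0050) in all 13 alternatives that could test it, but its size rested on the background correction. It was 0.90 with an offset of 16 and 2.01 with the processed signal, and no fold is given, since the bound did not exceed 1.

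Sox15, expressed in myoblast precursors and placenta, read 6.87 and 6.87 in the arrays labelled Pak1-/- and 7.40 and 7.11 in those labelled Pak1+/+. The groups did not overlap, and the difference of -0.38 (SE 0.12) was just past the threshold (limma, adjusted p = 0.046). The probe was well above background on 3 of the 4 arrays. The call held in 7 of 13 alternatives and was lost without Pak1-/- replicate 1 (adjusted p = 0.15), Pak1-/- replicate 2 (0.15) or Pak1+/+ replicate 1 (0.15, where the difference was -0.24). With the processed signal the difference was -0.82 (adjusted p = 0.041).

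**Figure D4:**
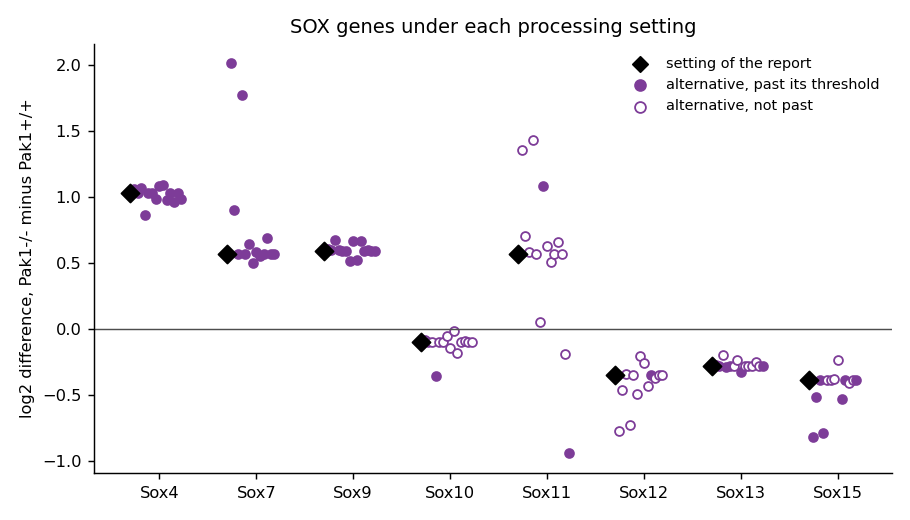
Log2 difference (y axis), Pak1-/- minus Pak1+/+ by label, of each tested SOX gene (x axis) in the reported setting (diamond) and in each alternative (circles, filled where past that alternative's threshold, each from 1 fit of all probes). Sox4 and Sox9 keep within 0.86 to 1.09 and 0.52 to 0.67, Sox7 reaches 2.01, and Sox11 runs from -0.94 to 1.43.

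The sequence upstream of the genes was taken from RefSeq promoter windows of GRCm38.p6, of which the 250 bases before the start site were used, on the gene's strand. Windows were matched for 7 of the 10 genes, Sox2, Sox4, Sox5, Sox11, Sox12, Sox13 and Sox15. The CCAAT box (CCAAT, either strand) occurred in 4 of the 7, namely Sox2, Sox4, Sox11 and Sox12, and in 33.9% of all 32841 windows. The GC box (GGGCGG, either strand) occurred in 3 of 7, Sox2, Sox11 and Sox12, and in 32.7% of all. A CpG observed over expected ratio of at least 0.6 was found in 5 of 7, all but Sox5 and Sox15, and in 34.0% of all. No window of the 7 held the SOX motif AACAAT (9.4% of all windows), the variant AACAAAG (5.0%) or TATAAA (12.4%). Matches are letters in a window and not shown to be bound.

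The windows of Sox4 and Sox13 are shown, since these were the genes above with a call, a bright probe and a matched window. The Sox4 window (GRCm38.p6, chr13:28953700-28953949, minus strand) held 4 CCAAT matches, which 0.84% of all windows reached or passed, and capitals mark them (ATTGG is the same box on the other strand). The Sox13 window (chr1:133424213-133424462, minus strand) held none of the motifs searched, had 72.4% GC against 50.8% for Sox4 and a median of 52.4% over all windows, and is printed without capitals.
Sox4: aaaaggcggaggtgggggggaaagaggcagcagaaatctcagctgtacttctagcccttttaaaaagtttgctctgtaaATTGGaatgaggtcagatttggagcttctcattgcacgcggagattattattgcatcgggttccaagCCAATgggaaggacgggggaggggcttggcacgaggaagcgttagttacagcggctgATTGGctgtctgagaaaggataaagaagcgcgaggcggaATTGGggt
Sox13: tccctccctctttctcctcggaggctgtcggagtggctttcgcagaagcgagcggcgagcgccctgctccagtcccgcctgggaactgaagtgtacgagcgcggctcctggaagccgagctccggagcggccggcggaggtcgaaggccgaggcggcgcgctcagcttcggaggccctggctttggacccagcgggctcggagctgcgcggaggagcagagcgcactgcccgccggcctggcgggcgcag
All 3 genes of group C held at least 1 CCAAT box in their windows, and a link between this box and their values on the arrays was not tested.

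The SOX genes outside the rule were read next. Of 10, 7 were tested, 1 was higher, 4 were lower and 2 were not past the threshold, with a median of -0.34 against -0.055 over all genes tested, of which 22.8% were higher and 28.3% lower. These shares over all genes also stand beside the counts of every list below. Every list was chosen with earlier results of these data known, so its counts are a description. Sox8 is among the 4 although it passed the filter only through the arrays labelled Pak1+/+, where it is high. Sox8, a gene of group E like Sox9 and Sox10, read 6.05 and 6.11 in the arrays labelled Pak1-/-, where it was not well above background, and 7.19 and 7.27 in those labelled Pak1+/+. The groups lay far apart for so dim a probe, and Sox8 was at least 1.52-fold lower in the arrays labelled Pak1-/- (limma, adjusted p = 0.00060). Sox6, a group D gene that acts with Sox5 in cartilage, read 8.05 and 8.15 against 7.49 and 7.39 and was higher by 0.66 (SE 0.08, limma adjusted p = 0.0033), and by 1.07 in the alternative that moved it most. Sox14 was lower with a log2 difference of -0.58 (limma adjusted p = 0.022), a call lost without either Pak1-/- replicate (0.070 and 0.10) or Pak1+/+ replicate 2 (0.058). Sox17, a group F gene like Sox7, was lower with a difference of -0.40 (limma adjusted p = 0.011), lost without Pak1+/+ replicate 1 (0.058) or 2 (0.053), and the difference was -1.03 with the processed signal.

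Known targets of the SOX proteins were then described, as lists from general knowledge of other tissues. Of 11 cartilage genes that SOX9 is known to drive with SOX5 and SOX6, 9 were tested, of which 3 were higher, 2 lower and 4 not past the threshold, with a median near 0 (-0.00041). The genes moved apart from each other. Cnmd (on the array as Lect1), a cartilage glycoprotein, read 12.09 and 11.45 against 9.02 and 9.46 and was higher by 2.53 (SE 0.26, limma adjusted p = 0.0020). Col9a3, a chain of type IX collagen, was higher by 1.47 (SE 0.12, limma adjusted p = 0.0010). Col9a1, another chain of the same collagen, read 12.27 and 11.38 against 14.25 and 14.21, a difference of -2.40 (SE 0.30, limma adjusted p = 0.0034). Comp, a matrix protein of cartilage, was also lower, with -1.55 (SE 0.15, limma adjusted p = 0.0016).

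Of 10 glial and melanocyte genes known as SOX10 targets, 8 were tested, with 1 higher, 4 lower and 3 not past the threshold (median -0.23). Mia (on the array as Mia1), a secreted protein of cartilage and melanoma, read 17.09 and 16.79 against 15.06 and 15.23 and was higher by 1.80 (SE 0.13, limma adjusted p = 0.00080). Erbb3, the receptor partner of Her2, read 9.01 and 9.16 against 9.98 and 9.71, a difference of -0.76 (SE 0.12, limma adjusted p = 0.0074). Gjb1, a gap junction protein of myelinating cells, was lower with -0.54 (SE 0.08, limma adjusted p = 0.0060). Dct, a melanin enzyme, was well above background on Pak1+/+ replicate 2 only (8.12, against 6.30 to 6.41 on the other three) and was not tested.

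Of 5 targets of SOX4 and SOX11, 3 were tested, with 1 higher, 1 lower and 1 not past. Tead2, a transcription factor of the Hippo pathway, read 15.53 and 15.55 in the arrays labelled Pak1-/- and 10.80 and 10.84 in those labelled Pak1+/+. Tead2 was thus higher by 4.72 (SE 0.07), which was past the threshold in all 13 alternatives (limma, adjusted p = 4.1e-05). Ezh2, the methyltransferase of the Polycomb complex, read 13.06 and 13.13 against 13.71 and 13.75, a difference of -0.63 (SE 0.07, limma adjusted p = 0.0025). The neuronal targets Stmn2 and Tubb3 were dim (not well above background) on all 4 arrays.

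Of 10 partners of SOX2 in pluripotent cells, 7 were tested, with 1 higher, 1 lower and 5 not past (median 0.15). Klf4, which is also an epithelial factor, read 10.53 and 10.52 against 8.54 and 8.56 and was higher by 1.97 (SE 0.07, limma adjusted p = 0.00013). Sall4 was lower with -0.24 (SE 0.07, limma adjusted p = 0.044), a call that held in 2 of 13 alternatives and was lost without any 1 of the 4 arrays (0.084 to 0.20).

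Of 10 genes of beta-catenin signalling, 7 were tested, of which 0 were higher, 5 were lower and 2 were not past the threshold in limma (0 higher and 6 lower at an unadjusted p under 0.05), with a median of -0.56. For Tcf7l2, which was not past the threshold, 1 of 3 probes was called higher, against the brightest probe. Among all genes tested 28.3% were lower, as above. Lef1, a DNA-binding partner of beta-catenin, read 8.74 and 8.99 in the arrays labelled Pak1-/- and 10.36 and 10.25 in those labelled Pak1+/+, a difference of -1.44 (SE 0.11, limma adjusted p = 0.0010). Tcf7, of the same family, read 9.79 and 9.89 against 11.03 and 10.94, a difference of -1.15 (SE 0.08, limma adjusted p = 0.00072). Rnf43, which removes Wnt receptors from the membrane, was lower with -0.76 (SE 0.08, limma adjusted p = 0.0025), and Ctnnb1, beta-catenin itself, with -0.56 (SE 0.08, limma adjusted p = 0.0053). Axin2, a feedback target, was well above background on Pak1+/+ replicate 2 only and was not tested.

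Of the 9 mammary basal and stem cell genes, all tested, 9 were higher by label in Pak1-/- beside 22.8% of all genes tested, and their median was 1.45. As said above, the list was chosen with earlier results of these data known, and the count is a description. Snai2 is among them although it passed the filter only through the arrays labelled Pak1-/-, where it is high. Krt17, a basal keratin, read 14.09 and 13.64 against 8.85 and 9.05 and was higher by 4.92 (SE 0.18, limma adjusted p = 0.00015). Krt14, the keratin of myoepithelial cells, read 15.93 and 15.89 against 13.05 and 13.10 and was higher by 2.83 (SE 0.07, limma adjusted p = 7.5e-05). Acta2, smooth muscle actin, was higher by 1.69 (SE 0.19, limma adjusted p = 0.0026). Snai2, a factor known to act with Sox9 in mammary stem cells, read 8.08 and 7.86 against 6.32 and 6.41, where it was not well above background, and was at least 2.15-fold higher (limma, adjusted p = 0.00058).

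Of the 10 mammary luminal genes, all tested, 5 were higher, 1 was lower and 4 were not past the threshold, beside 22.8% higher and 28.3% lower over all genes tested, with a median of 0.19. Foxa1, the pioneer factor of hormone-responsive cells, read 13.10 and 13.50 against 11.58 and 11.59 and was higher by 1.71 (SE 0.15, limma adjusted p = 0.0012). Cdh1, E-cadherin, was higher by 1.19 (SE 0.10, limma adjusted p = 0.0012) and Krt8, a luminal keratin, by 0.57 (SE 0.07, limma adjusted p = 0.0029). Krt8 was the only one of these whose call was lost in an alternative, with the processed signal scaled to the 75th percentile (0.27, adjusted p = 0.060). Kit, a receptor of luminal progenitors, was lower with -0.61 (SE 0.08, limma adjusted p = 0.0036).

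**Figure D5:**
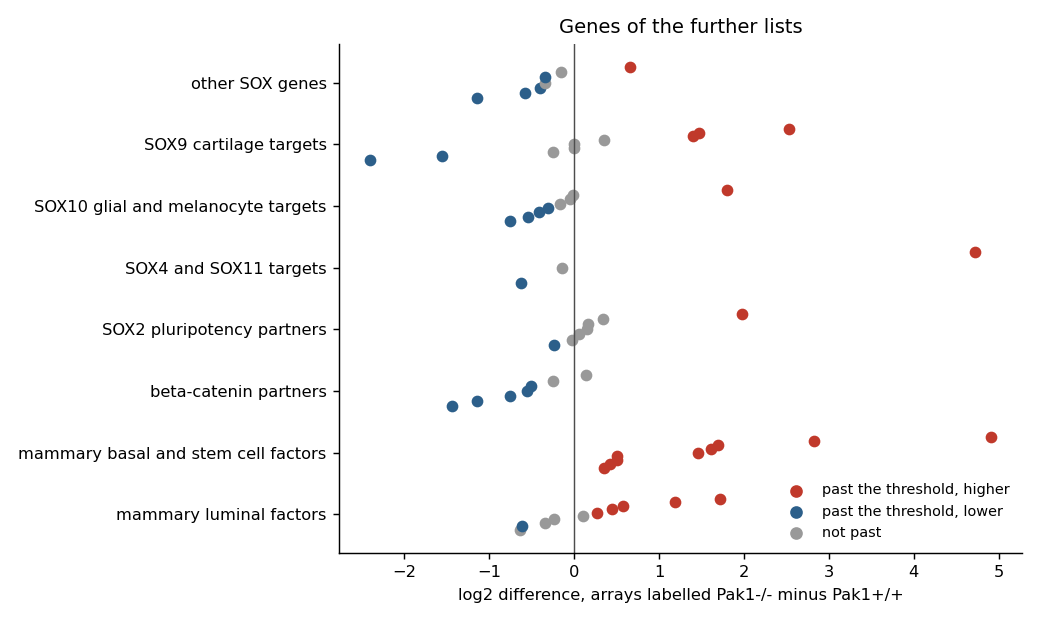
Log2 difference (x axis), arrays labelled Pak1-/- minus Pak1+/+, of each tested gene (1 point, brightest probe) in 8 lists of SOX relatives, targets, partners and mammary factors (y axis), coloured by the limma call. All 9 basal and stem cell genes lie above 0 and 5 of 7 beta-catenin genes are past the threshold below 0, while the cartilage list reaches from -2.40 to 2.53. The lists were chosen with earlier results of these data known.

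Markers of other cell types were read beside these values, since some SOX genes and targets belong to other lineages. Fewer cells of a type and less RNA per cell cannot be told apart in such samples. Epithelial markers were present, as the label of breast cancer cells implies. Epcam, Krt8 and Krt18 were well above background on all 4 arrays, and of 6 epithelial markers 3 were higher, 1 lower and 2 not past. All but Krt7 also stand in the luminal list, and Krt7, named after its values were seen, was the lower one, with 16.46 and 16.51 against 17.59 and 17.57 (difference -1.10, SE 0.07, limma adjusted p = 0.00055). The mean log2 intensity over the list was 14.82 and 14.81 in the arrays labelled Pak1-/- and 14.89 and 14.72 in the others. Of 6 endothelial markers, which bear on Sox7, 3 were tested and none was past the threshold (limma; 0 of 3 also at an unadjusted p under 0.05), Tek, Tie1 and Emcn were dim on all 4 arrays, Kdr (12.99 to 13.27) and Pecam1 (9.23 to 9.47) were well above background on all 4, and the list means were 7.995 and 8.22 against 7.94 and 8.16. Of 7 fibroblast markers 3 were tested, and 1 was higher and 0 lower in limma, also at an unadjusted p under 0.05. The higher one, named after its values were seen, was Col1a1, with 9.31 and 8.88 against 8.03 and 7.93 (difference 1.12, SE 0.16, limma adjusted p = 0.0051). Col1a1, Col1a2 and Pdgfra were well above background on all 4 arrays. Col3a1, Dcn, Lum and Pdgfrb were dim on all 4 (list means 7.19 and 7.22 against 7.14 and 7.03). Of 6 leukocyte markers 5 were tested, 0 were higher and 2 lower in limma, also at an unadjusted p under 0.05 (list means 9.46 and 9.36 against 9.58 and 9.61).

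Of 10 markers of Schwann cells, glia and melanocytes, the lineages that Sox10 is known for, 8 were tested, 0 were higher, 4 were lower and 4 were not past in limma (1 higher and 4 lower at an unadjusted p under 0.05), beside 28.3% lower over all genes tested, and the list means were 7.97 and 7.94 against 8.43 and 8.63. S100b, a calcium-binding protein of glia that other cells express too, was not well above background in the arrays labelled Pak1-/- (6.71 and 6.86) and read 10.75 and 10.88 in those labelled Pak1+/+, at least 16.4-fold lower (limma, adjusted p = 6.9e-05); it passed the filter only through the latter arrays and was named after its values were seen. Tyrp1, a melanin enzyme, was dim on all 4 arrays. The part of other cell types in the SOX values was not tested.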

How the data were processed

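The scanner files deposited for the 4 arrays hold spot intensities on a linear scale, made, per the file headers, with Feature Extraction 9.5.3.1, not normalized between arrays. The authors also deposited log2 values of the same arrays, normexp corrected and quantile normalized per their methods, which were used as an alternative. Here the study's normexp correction and quantile normalization, on log2 values, were repeated in limma 3.58.1 (R 4.3.3). The normexp offset of 50 was set here. Leaving out outlier-flagged spots and averaging the spots of a probe were also set here, and both followed the normalization. Probes that stood well above background on 2 or more of the 4 arrays and with a usable value on all 4 were tested (27215 of 39429; lmFit and eBayes, two-sided, genotype only, Benjamini-Hochberg over all, threshold 0.05). An offset understates the change of dim probes, and the number of arrays limits the precision. "At least N-fold" compares a bright group with the higher of the dim probe's value and the lowest value well above background on each array. From each list other than the cell type markers the 4 largest changes past the threshold and genes bright in 1 group only were named, except where a gene is not reported here. Probe coordinates are those of the files (mm9, NCBI37); exon and UTR positions are not given in the sources used here. Names came from the files and a RefSeq table of GRCm38.p6. The fit was tested on simulated data. The members and lists were chosen with earlier results of these data known. Human cell samples of the study were not analysed here.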

Additional observations from a re-analysis of the deposited data

How the results depend on the processing

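Of the single-gene results, Sox4 and Sox9 kept their direction and their side of the threshold in every alternative. Sox7 was also called in each that could test it, but it entered the test only through the arrays labelled Pak1-/-, where it is high, so this says nothing of its stability. In these alternatives the number of SOX genes higher was 3 in each, except 2 with brightness required on all 4 arrays (which leaves 4 SOX genes to test) and 3 to 4 when 1 array was left out (the fourth was Sox11, without Pak1-/- replicate 2). The number of SOX genes lower was less firm. It was 2 in the report, 1 with cyclic loess or with brightness on all 4 arrays, 3 with the processed signal scaled to the 75th percentile, and 0 without a filter, with the authors' table or at an adjusted p under 0.01, and it was 0 to 1 when 1 array was left out. The probes past the threshold numbered 14144, 8900 at an adjusted p under 0.01, and 10312 to 12168 with 1 array left out. The lone array of a group was then assumed to vary like the others. Sox11 reversed to -0.19 with the mean over its probes and to -0.94 from its other probe, an alternative chosen after seeing the data, which made the SOX genes lower 3. The cause of these changes was not tested. Of 109 values of single SOX genes under the alternatives, 90 kept direction and side, 14 lost the call, 3 gained it and 2 reversed. No scaling moved the median of all genes by more than 0.1. The share of calls that were higher was 44.9% in the report and 52.4% with cyclic loess, so that the balance of higher and lower calls turned there. The labels number the replicates in both groups but tie no Pak1-/- sample to a Pak1+/+ sample, and the replicate differences did not correlate (r = -0.028 across probes). With the replicate block 13202 probes, 3 higher and 2 lower SOX genes were past the threshold. The lower ones were then Sox12 (limma, adjusted p = 0.035) and Sox15 (0.046), while Sox13 lost its call (0.059). The tested genes that the rule named from the 8 lists of SOX relatives, targets, partners and mammary factors, with S100b and Krt7, added to the alternatives after seeing the data, reversed in none. Low signal over background limits Sox2, Sox5, Sox7, Sox11, Sox12 and Sox15.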
